A study of Mus musculus with 50 samples.

Results

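Microglia, the resident macrophages of the brain, were compared between inducible Hdac1 and Hdac2 knockouts and their controls at 6 weeks of age (45 days). The 8 libraries, 4 knockouts and 4 controls, were taken by the genotype and age in their names from the 50 libraries of the series. All 8 mice carried loxP-flanked Hdac1 and Hdac2 on both copies. The knockouts also carried CX3CR1-CreERT2, a Cre recombinase that acts only once tamoxifen is bound, driven from the fractalkine receptor gene, and the controls carried no Cre. Both groups came from dams injected with 3 mg tamoxifen, given with progesterone, on embryonic day 13, so the weeks between treatment and sampling spanned late gestation and postnatal growth. The mice were killed by transcardial perfusion and total RNA was taken from microglia sorted by flow cytometry. The controls lack CreERT2, so what the deletions do and what CreERT2 itself does cannot be told apart. Each library is a different animal, named here by its animal number: controls 10, 11, 1 and 5, and knockouts 12, 4, 6 and 9. The comparisons used for contrast are the same inducible model at 2 weeks (4 knockouts and 4 controls) and the constitutive CX3CR1-Cre model at 6 weeks (3 knockouts and 4 controls, no tamoxifen), each with its own controls.

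HDAC1 and HDAC2 are closely related enzymes that remove acetyl groups from histones and act inside large corepressor complexes such as NuRD, SIN3, CoREST and MiDAC, where either enzyme can often stand in for the other. Acetylated chromatin is generally more open, so these complexes are best known for keeping genes low, although they also sit at active genes. Microglia enter the brain in the embryo, divide while the brain grows and then renew slowly as a mature population marked by genes such as P2ry12, Tmem119 and Sall1.

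The libraries held 14044487 to 27211406 counts in controls and 15220497 to 29651179 in knockouts, with 19402 to 21099 genes detected. Mitochondrially encoded genes took 0.36% to 0.671% of control counts and 0.38% to 0.812% of knockout counts, with the highest share in knockout 4. Pairs of knockouts that included knockout 4 also differed most in their counts (chi-square per gene 55.2 to 59.8, against 24.7 to 32.8 for the other knockout pairs). Without knockout 4, edgeR called 14 genes that rose and 4 that fell, in place of the 7 and 2 given below. Sex, read from the counts, was 2 females and 2 males in controls and 3 females and 1 male in knockouts. The sorted cells expressed the microglial markers at high levels in every library: P2ry12 lay at 8045 to 11390 CPM (counts scaled by the library total), Tmem119 at 2001 to 3851 CPM and Sall1 at 578 to 945 CPM. The lymphocyte genes Cd3e and Trbc2 and the oligodendrocyte lineage genes Olig2 and Pdgfra had no count in any of the 8 libraries, and summed neuron markers stayed between 3.84 and 7.90 CPM. Knockout 6 differed from the rest in its myeloid markers, which are given with those lists below.

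Few genes passed the test at this age. Of 14217 genes tested, 9 passed an adjusted p of 0.05 in edgeR's quasi-likelihood test with Benjamini-Hochberg adjustment, which is 0.0633% of the genes. The count depends on the method: DESeq2 called 44 genes, the 9 among them, and edgeR without a low-count filter called 25. Of the 9, 7 rose (Esr1, Serpinf1, Stag3, Trps1, Trerf1, Stox2 and Sorbs3) and 2 fell (Hdac2 and Cx3cr1). The promoters of 4 of the 5 risen genes with an entry are shown here to set their sequences side by side. Promoters were found for 7 of the 9 called genes in the RefSeq table of GRCm38.p6, and Trps1 and Sorbs3 had no entry. Each line gives the 250 bases before the annotated start on the gene's strand, 5′ to 3′, with capitals marking the E-box CACGTG. The windows are chr5:138280259-138280508 (Stag3, plus strand), chr11:75422624-75422873 (Serpinf1, minus strand), chr8:47352349-47352598 (Stox2, minus strand) and chr17:47229980-47230229 (Trerf1, plus strand).
Stag3: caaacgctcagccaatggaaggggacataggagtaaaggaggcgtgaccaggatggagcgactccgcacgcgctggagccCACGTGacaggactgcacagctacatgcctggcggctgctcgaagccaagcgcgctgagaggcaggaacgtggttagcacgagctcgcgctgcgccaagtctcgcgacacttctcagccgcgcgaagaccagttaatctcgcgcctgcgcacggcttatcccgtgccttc
Serpinf1: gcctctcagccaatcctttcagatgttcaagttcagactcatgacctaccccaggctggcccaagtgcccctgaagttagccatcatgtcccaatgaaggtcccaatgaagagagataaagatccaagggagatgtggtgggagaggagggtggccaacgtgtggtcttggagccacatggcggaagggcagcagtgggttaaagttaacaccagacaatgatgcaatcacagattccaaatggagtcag
Stox2: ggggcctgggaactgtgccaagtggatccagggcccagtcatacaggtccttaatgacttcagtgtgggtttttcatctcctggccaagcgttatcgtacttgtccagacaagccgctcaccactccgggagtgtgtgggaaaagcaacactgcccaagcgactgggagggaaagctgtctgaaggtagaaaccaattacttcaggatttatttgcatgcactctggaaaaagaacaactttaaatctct
Trerf1: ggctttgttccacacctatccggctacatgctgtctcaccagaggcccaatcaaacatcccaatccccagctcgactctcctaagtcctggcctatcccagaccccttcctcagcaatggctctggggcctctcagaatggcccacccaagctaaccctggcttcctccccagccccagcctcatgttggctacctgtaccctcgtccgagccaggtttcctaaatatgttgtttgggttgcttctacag

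The Stag3 window held 26 CpG dinucleotides, more than 90.4% of the 32851 promoters in the table, whose median was 6 and whose quartiles were 2 and 16. By contrast, the Serpinf1 window held 2, the Stox2 window 5 and the Trerf1 window 4 CpG dinucleotides. The windows for Stag3, Stox2 and Trerf1 lie inside the gene spans of the annotation, and the Serpinf1 window partly overlaps its span. Which start these microglia use was not examined. Both strands were searched for the E2F motif TCCCGC, the E-box CACGTG and the GC box GGGCGG, which occur in 16.9%, 6.02% and 32.7% of all promoters of this length. Among the 4 windows shown, the only match was the single E-box of Stag3. Of the other called genes, Esr1 has 2 windows in the table, of which 1 held a TCCCGC and the other no match, the Hdac2 window held 1 TCCCGC and 1 GGGCGG, and the Cx3cr1 window held none. A match is a description of the letters and not evidence of binding.

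Of the 2 targeted genes, Hdac2 fell and Hdac1 did not pass the test. Hdac2 (chromosome 10, 36974544 to 37001889, plus strand, GRCm38) was at 67.9, 77.1, 71.5 and 66.2 CPM in controls 10, 11, 1 and 5 and at 32.5, 28.1, 30.6 and 27.3 CPM in knockouts 12, 4, 6 and 9. Every knockout lay well below every control, and the spread within each group was small. The mean fell from 70.6 ± 4.83 to 29.6 ± 2.36 CPM (SD, n = 4 each). The fitted fall was 2.43-fold, a log2 change of -1.28 ± 0.12 (SE, adjusted p = 2.55e-04, edgeR). Hdac1 (chromosome 4, 129516104 to 129542713, minus strand) was less abundant, at 14.8, 18.9, 15.9 and 12.8 CPM in controls and 11.1, 11.96, 13.5 and 11.4 CPM in knockouts. Its groups overlapped, since knockout 6 was above control 5. Its log2 change of -0.41 ± 0.17 had an unadjusted p of 0.0329 and did not pass (adjusted p = 0.999, edgeR). The labels do not name the exons between the loxP sites, and counts over a whole gene include transcripts that lack them. In bulk libraries of sorted cells, fewer deleted cells and more remaining RNA per cell cannot be told apart.

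**Figure D1:**
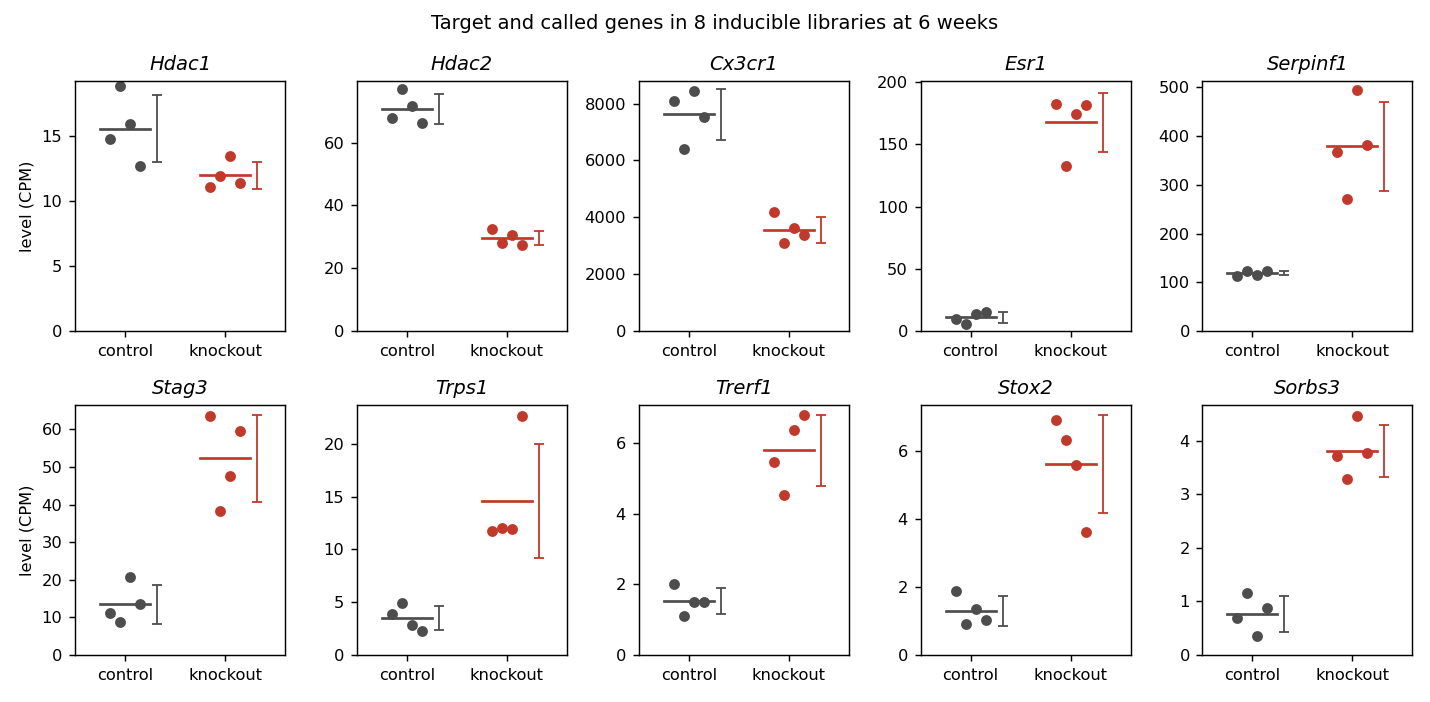
Levels of Hdac1, Hdac2 and the 8 other genes that passed the test, in CPM (vertical axes starting at 0), for 4 control (grey) and 4 knockout (red) libraries at 6 weeks; points are libraries, long bars are means and whiskers are 1 SD. The groups do not overlap for any gene except Hdac1.

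Cx3cr1, which encodes the microglial receptor for the neuronal chemokine fractalkine and whose regulatory sequence drives the recombinase in these mice, was the other gene that fell. It stood at 8105, 6394, 8448 and 7532 CPM in controls and at 4175, 3085, 3622 and 3367 CPM in knockouts. No knockout reached the lowest control, and the fitted fall was 2.18-fold, a log2 change of -1.12 ± 0.12 (adjusted p = 0.00134, edgeR). In widely used lines of this name Cre is inserted into the Cx3cr1 gene itself, and the labels do not say which line was used. The fall was present in both models: the log2 change was -0.91 at 2 weeks and -0.98 in the constitutive knockouts at 6 weeks, and the difference between the models was -0.16 with a 95% interval from -0.74 to 0.42. At earlier ages the gap was wider (group means, not tested). Inducible knockouts were at 564 against 2963 CPM in controls on embryonic day 16, and at 414 against 2750 CPM at birth. Constitutive knockouts at birth were at 167.5 against 3424 CPM in their controls. Cx3cr1 (chromosome 9, 119901616 to 120069879, minus strand) shares exon bases with the predicted gene Gm33858, and the counts of a library without strand information can come from either.

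Esr1, which encodes the nuclear oestrogen receptor alpha, rose the most of the 9 genes. Controls had 9.68, 5.68, 14.1 and 15.4 CPM and knockouts had 183, 133, 174 and 182 CPM. Even knockout 4, the lowest, was above every control by a wide margin. The means were 11.2 ± 4.44 CPM in controls and 168 ± 23.7 CPM in knockouts. The fitted rise was 14.7-fold, a log2 change of 3.87 ± 0.27 (adjusted p = 9.44e-05, edgeR). Esr1 lies on chromosome 10 from 4611593 to 5005614 on the plus strand. In the constitutive knockouts of the same age, whose Cre carries no receptor domain, Esr1 was at 11.5 to 15.9 CPM against 8.13 to 13.4 CPM in their controls (log2 change 0.22, adjusted p = 0.623), and the difference between the models was 3.64 (adjusted p = 6.41e-06). CreERT2 is a fusion of Cre with an altered hormone-binding domain of the human form of this receptor. Whether reads of the transgene were counted under Esr1 was not tested. Esr1 was also higher in the libraries with CreERT2 at the earlier ages, at 43.8 against 2.499 CPM on embryonic day 16, 36.8 against 5.74 CPM at birth and 159.9 against 7.18 CPM at 2 weeks (group means).

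Serpinf1 encodes PEDF, a secreted serpin known for restraining blood vessel growth. Its control levels were tight, at 114, 123, 116 and 123 CPM, while the knockouts were spread over 369, 272, 494 and 383 CPM. The lowest knockout was still more than any control, and the fitted rise was 3.12-fold (log2 change 1.64 ± 0.15, adjusted p = 2.55e-04, edgeR). Serpinf1 (chromosome 11, 75409769 to 75422701, minus strand) was not raised in the constitutive knockouts at 6 weeks, where the log2 change was -0.04 with a 95% interval from -1.08 to 1.01. The difference between models was 1.67 (adjusted p = 0.045), a call kept under 8 of 21 alternative settings, with adjusted p from 2.52e-04 to 0.14. Stox2 encodes a winged-helix protein of the storkhead-box family. It was low in controls, at 1.89, 0.894, 1.35 and 1.03 CPM, and reached 6.91, 6.31, 5.58 and 3.61 CPM in knockouts. Knockout 9 was the lowest of the 4, and the groups did not overlap (4.28-fold, log2 change 2.10 ± 0.33, adjusted p = 0.0377, edgeR). In the constitutive knockouts its log2 change was 0.27 (adjusted p = 0.843), and the difference between models did not pass (1.81, adjusted p = 0.163).

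Stag3 encodes a cohesin subunit of germ cells, where it holds sister chromatids together in meiosis. It was at 11.1, 8.67, 20.7 and 13.6 CPM in controls and at 63.5, 38.3, 47.7 and 59.7 CPM in knockouts, with no overlap. The fitted rise was 3.82-fold and the log2 change was 1.94 ± 0.24 (adjusted p = 0.00623, edgeR). Stag3 (chromosome 5, 138280240 to 138312393, plus strand) rose in all of the comparisons set side by side here: the log2 change was 1.42 at 2 weeks (adjusted p = 6.8e-06) and 2.31 in the constitutive knockouts (adjusted p = 0.00229). The difference between models was -0.38, with a 95% interval from -1.30 to 0.54.

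Trps1, Trerf1 and Sorbs3 rose in both models at 6 weeks. Trps1 encodes a GATA-type zinc-finger repressor. Its controls had 3.84, 4.89, 2.85 and 2.28 CPM and its knockouts 11.7, 12.02, 11.97 and 22.7 CPM, so that 3 knockouts were nearly equal and knockout 9 was well above them. The log2 change was 2.05 ± 0.29 (4.14-fold, adjusted p = 0.0178, edgeR). The constitutive knockouts reached 162 to 209 CPM, and the rise was smaller in the inducible model by 2.84 on the log2 scale (difference -2.84, adjusted p = 8.48e-05). Sorbs3 encodes vinexin, an adaptor protein of cell adhesions and the actin cytoskeleton. It was close to the detection limit in controls, at 0.687, 1.16, 0.356 and 0.882 CPM, and stood at 3.71, 3.29, 4.47 and 3.78 CPM in knockouts. Its log2 change of 2.25 ± 0.36 was just under the threshold (adjusted p = 0.0461, edgeR), against 5.18 in the constitutive knockouts, and that difference also passed (-2.96, adjusted p = 0.0062). Both differences between models stayed called under all 21 alternative settings.

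Trerf1 encodes a zinc-finger protein related to a subunit of the MiDAC deacetylase complex, and the annotation lists this locus as a processed transcript (chromosome 17, 47140875 to 47361958, plus strand). Controls had 2.004, 1.104, 1.495 and 1.507 CPM and knockouts 5.46, 4.53, 6.38 and 6.80 CPM, with no overlap (3.72-fold, log2 change 1.90 ± 0.28, adjusted p = 0.0237, edgeR). In the constitutive knockouts its log2 change was 3.16, and the difference between models did not pass (-1.28, adjusted p = 0.0829). Of the locations not yet given, Trps1 is on chromosome 15 (50654752 to 50890463, minus strand) and shares exon bases with Mir1907. Stox2 is on chromosome 8 (47180048 to 47446362, minus strand), and Sorbs3 is on chromosome 14 (70180468 to 70211989, minus strand) and shares exon bases with Gm49417.

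The 9 calls were not equally stable. Esr1, Hdac2, Serpinf1, Cx3cr1 and Stag3 kept their call when any of the 8 libraries was left out and under 15 of 16 alternative settings in all. Trps1 kept it under 11, Trerf1 under 9, Stox2 under 7 and Sorbs3 under 6 of the 16. Leaving out a single library ended the call of Trps1 in 3 of 8 cases (control 1, control 5 or knockout 9), of Trerf1 in 6, of Stox2 in 6 and of Sorbs3 in 7. Among the females alone, 3 knockouts and 2 controls, edgeR called 0 genes (401 at an unadjusted p under 0.05), while the log2 changes kept their direction. They were 3.91 for Esr1, -1.26 for Hdac2, 1.595 for Serpinf1, -0.97 for Cx3cr1 and 2.13 for Stag3. The less stable genes moved more, to 2.67 for Stox2, 1.88 for Sorbs3, 1.72 for Trps1 and 2.03 for Trerf1. With sex as a covariate 5 genes rose and 2 fell.

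Most of the transcriptome was measured closely enough to bound a change. The median 95% interval of a log2 change reached 0.402 to either side, or 1.32-fold, and for 10863 genes (76.4%) the whole interval lay within a 2-fold change in either direction. An unadjusted p under 0.05 was found for 626 genes (4.4%). Every knockout library was above every control for 306 genes (2.15%) and below every control for 162 genes (1.14%).

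At 2 weeks the same model had more called genes, 155 that rose and 158 that fell (2.25% of 13921). All 4 controls of that age were female and 3 of the 4 knockouts were male, so sex and genotype are partly confounded there. Of the 155 genes that had risen, 143 were also tested at 6 weeks, and their median log2 change was 1.02 at 2 weeks and 0.32 at 6 weeks. At 6 weeks 118 of them (82.5%) were above 0, against 51.7% of all genes tested, and 6 were called (Esr1, Serpinf1, Stag3, Stox2, Trerf1 and Trps1). For 25 of the 143 (17.5%) every knockout at 6 weeks was above every control, against 2.15% of all genes. Of the genes that had fallen at 2 weeks, 156 were tested at 6 weeks, with a median of -0.66 at 2 weeks and -0.175 at 6 weeks. Here 131 (84.0%) were below 0, and 21 (13.5%) had every knockout below every control, against 1.14% of all genes. Both genes that fell at 6 weeks, Hdac2 and Cx3cr1, were among them. Of the 9 genes called at 6 weeks, 8 had thus been called at 2 weeks in the same direction (3.87% of the genes that rose and 1.27% of those that fell at that age), and Sorbs3 had not (0.92, adjusted p = 0.120, edgeR).

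The change with age was also tested directly, as the difference between the knockout effect at 6 weeks and that at 2 weeks. edgeR called 0 of 15043 genes (0%), with 1029 genes at an unadjusted p under 0.05 (6.84%). With sex as a covariate it again called 0, and 460 genes had an unadjusted p under 0.05. DESeq2 called 6 genes and limma voom 0. The gene with the smallest p was Trim6, a ubiquitin ligase of the tripartite motif family, whose log2 change was 7.65 at 2 weeks and -0.49 at 6 weeks (difference -8.25, adjusted p = 0.0908). Next came Ndc80, a kinetochore protein (1.53 at 2 weeks and -0.54 at 6 weeks), and Ptprd, a receptor phosphatase that was too low to be tested at 6 weeks alone, both with an adjusted p of 0.374. Leaving out knockout 6 of the 2-week group brought 13 genes past the threshold, and leaving out knockout 4 of the 6-week group brought 1. For Esr1 the difference between ages was -0.54 (95% interval -1.24 to 0.17), for Hdac2 0.13 (-0.16 to 0.43) and for Cx3cr1 -0.22 (-0.56 to 0.12). The medians were smaller at 6 weeks, but those genes had been chosen by their calls at 2 weeks, which favours larger values there. The direct test in edgeR passed for no gene.

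**Figure D2:**
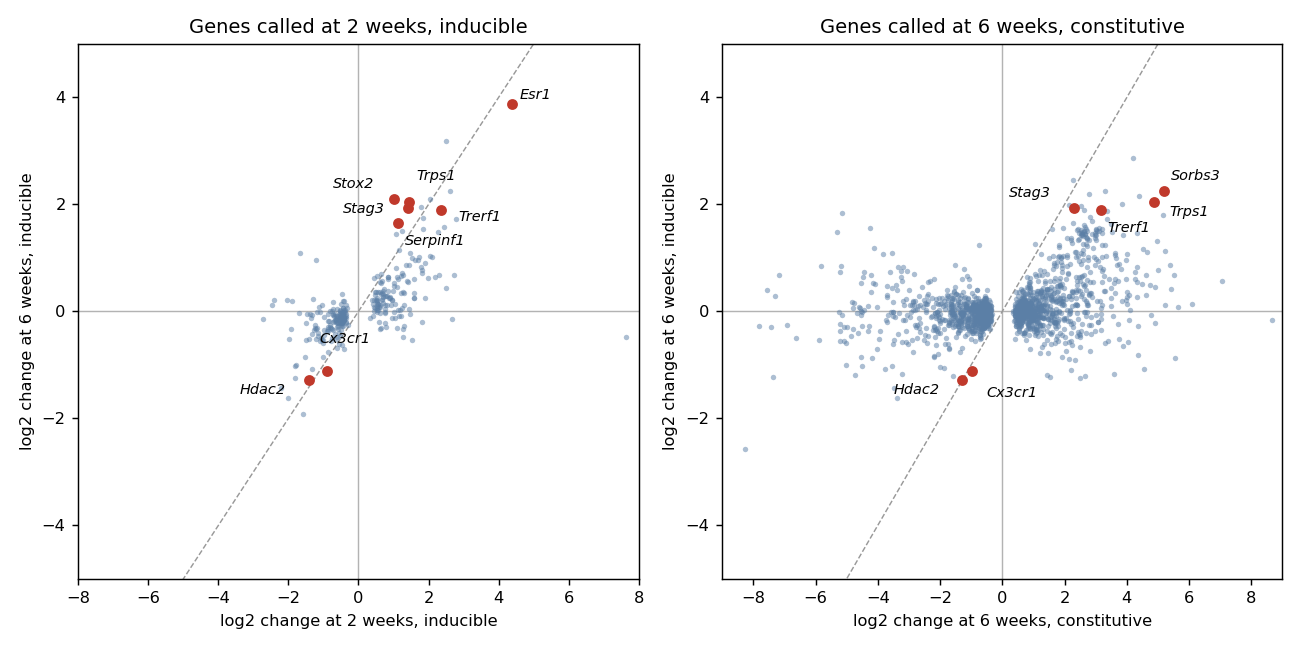
Log2 change (knockout over control) at 6 weeks in the inducible model (vertical axes) against that at 2 weeks in the inducible model (left) and that at 6 weeks in the constitutive model (right); each point is a gene called in the comparison on the horizontal axis and tested in both, red points were also called at 6 weeks in the inducible model, and the dashed line marks equal changes. Genes called at 2 weeks keep their sign in 82.5% (risen) and 84.0% (fallen) of cases, and genes called in the constitutive model in 61.6% and 59.8%, against 51.7% of all genes above and 48.3% below 0.

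The constitutive knockouts of the same age showed a much longer list, with 975 genes that rose and 756 that fell (12% of 14428). Of those that rose, 817 were tested in the inducible model, where their median log2 change was 0.10 against 1.34 in the constitutive model, and 503 (61.6%) were above 0, against 51.7% of all genes. Of those that fell, 749 were tested, with medians of -0.045 and -0.98, and 448 (59.8%) were below 0, against 48.3% of all genes. The difference between the models was itself called for 329 of the 817 genes (40.3%) and for 340 of the 749 (45.4%), against 767 of all 15492 genes tested (4.95%). These genes were chosen by calls in the same constitutive libraries. The larger shares and the larger constitutive medians are therefore partly built in by that choice. In 42 of the 817 (5.14%) every inducible knockout was above every control, against 2.15% of all genes, and in 25 of the 749 (3.34%) below, against 1.14%. Stag3, Trerf1, Trps1, Sorbs3, Hdac2 and Cx3cr1 were called in both models. All 7 constitutive mice were female, whereas both sexes were present in the inducible groups. With sex as a covariate the difference between models was called for 335 genes higher and 355 lower in the inducible model. The constitutive knockout group holds a library with 92.2 CPM of Hdac1, above every control. Without that library the difference between models was called for 531 genes (287 higher and 244 lower in the inducible model).

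The strongest model differences were genes that moved far in the constitutive knockouts and less here. Myo6, an actin motor, was at 26.2 to 36.8 CPM in inducible controls and 29.1 to 35.7 CPM in inducible knockouts, a log2 change of -0.001 against -4.54 in the constitutive model (difference 4.53, adjusted p = 8.57e-10, edgeR). Nbea, a scaffold protein of membrane traffic, changed by 0.07 against -4.60, and Hspb3, a small heat shock protein, by -0.26 against -6.93. In the other direction stood Arhgap15, a regulator of the small GTPase Rac (0.43 against 5.42), and Gpr65, an acid-sensing receptor. Gpr65 had a log2 change of 4.55 in the constitutive knockouts and of -1.08 in the inducible ones. In the inducible model the p of edgeR did not pass after adjustment (0.413), while DESeq2 called the fall. The groups overlapped there (10.9 to 29.2 CPM in controls and 6.91 to 11.2 CPM in knockouts).

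Among 36 gene lists of microglial and general cell biology, 34 had no called member at 6 weeks, and the other 2 had 1 each. With 0.0633% of all genes called and 537 list genes tested, a list without a call is what that share gives for nearly any list, so levels and intervals are given beside the counts. In the homeostatic list of 28 microglial identity genes, Cx3cr1 fell and 27 did not pass. The median log2 change was -0.055, against 0.008 over all genes, and for 26 of the 28 the 95% interval lay within 2-fold. P2ry12, the purinergic receptor that guides microglial processes to injury, was at 8045, 8270, 9201 and 8552 CPM in controls and 8679, 11390, 9025 and 8981 CPM in knockouts (0.13, interval -0.10 to 0.37). Sall1, a transcription factor of microglial identity, changed by 0.12 (-0.17 to 0.41), and Tmem119 by -0.17 (-0.51 to 0.18). The summed level of the list was 122400 to 131900 CPM in controls and 119700 to 125500 CPM in knockouts. In the constitutive model 14 of the 28 fell (5.24% of all genes fell there), with a median of -0.45, and for 6 of the 28 (P2ry12, Sall1, Sall3, Sparc, Cst3 and Slc2a5) the difference between models passed, higher in the inducible model each time (2.41% of all genes). Sall3 shows it most clearly, with -0.06 here and -5.17 in the constitutive knockouts (difference 5.09, adjusted p = 3.91e-06, edgeR).

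The disease-associated list holds genes that microglia raise around plaques and dying cells. None of its 23 tested members was called, and the median was -0.05. Apoe, a lipid carrier, was at 760, 738, 663 and 558 CPM in controls and at 529, 362, 1413 and 754 CPM in knockouts. Knockout 6 was high and knockout 4 low, and the log2 change of 0.14 had a wide interval (-0.74 to 1.02). The same gene had a log2 change of 6.09 in the constitutive model (difference -5.96, adjusted p = 8.31e-05). Axl, a receptor for dying cells, was at 9.76 to 22.6 CPM in controls and 19.3 to 51.2 CPM in knockouts, with overlap (0.77, adjusted p = 0.999, against 5.00 in the constitutive model). Likewise no member of the type I interferon list was called among 31, and the median was -0.07, whereas 19 rose in the constitutive model (median 1.32, with 6.76% of all genes risen) and 10 were lower in the inducible model by the test between models (2.54% of all genes). Irf7, a master regulator of the response, changed by -0.46 here and by 1.75 there (difference -2.23, adjusted p = 0.0122).

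Genes of mitosis differed in another way, since the data could bound few of them. None of the 25 tested members was called, but 20 lay above 0 with a median log2 change of 0.46, and for only 2 did the interval stay within 2-fold. Their sum was 29.4 to 46.9 CPM in controls and 44.7 to 80.4 CPM in knockouts, with the maximum in knockout 6. Mki67, the proliferation marker, was at 1.43, 3.05, 3.06 and 0.515 CPM in controls and at 2.77, 5.45, 12.1 and 3.36 CPM in knockouts, where knockout 12 was below controls 11 and 1 and knockout 6 stood far above the rest (1.55 ± 0.58, unadjusted p = 0.0198, adjusted p = 0.999, edgeR). Ccnb2, a mitotic cyclin, had every knockout above every control (1.57 to 3.03 against 0.588 to 1.31 CPM, log2 change 1.16) and did not pass either. Of the 25 members, 2 had every knockout above every control (2.15% of all genes). For 1 member every knockout was below every control (1.14% of all genes), and the lowest log2 change on the list was -1.01. Without knockout 6 the list median was 0.35 and 17 of 25 were above 0. At 2 weeks the median was 1.20 with 2 of 25 risen (1.11% of all genes), and in the constitutive model it was 1.16 with 8 of 25 risen (6.76% of all genes). The 28 genes of DNA replication had a median of -0.07, and none was called.

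**Figure D3:**
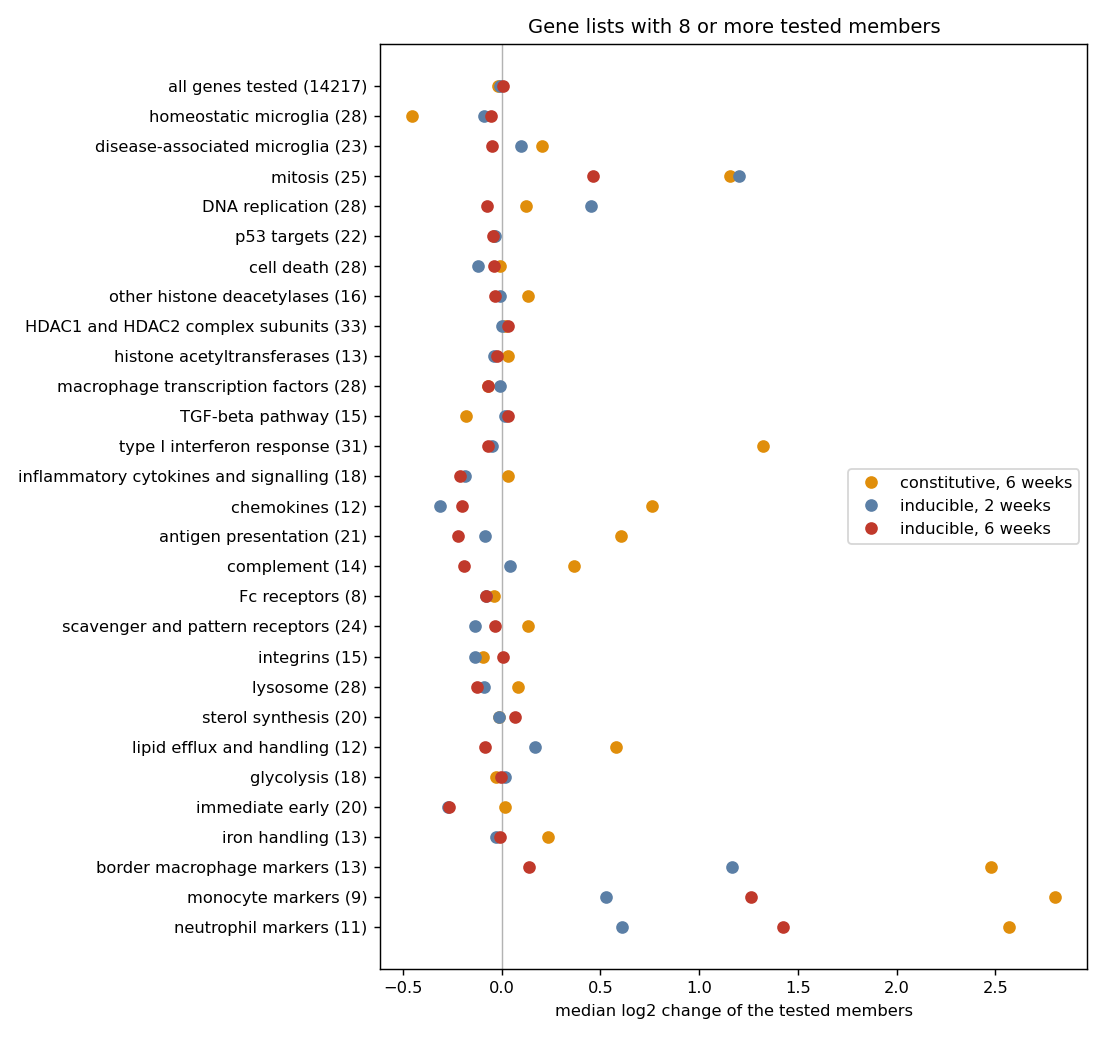
Median log2 change (horizontal axis, knockout over control) of the tested members of each gene list with 8 or more, in the inducible model at 6 weeks (red), the inducible model at 2 weeks (blue) and the constitutive model at 6 weeks (orange); the number in brackets counts members tested at 6 weeks in the inducible model. The homeostatic list lies at -0.055 in the inducible model and at -0.45 in the constitutive model, and the monocyte and neutrophil lists lie at 1.26 and 1.43 at 6 weeks, which rests on knockout 6.

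On the list of partners of the deleted enzymes 1 gene was called. Of 33 tested genes listed as subunits of HDAC1 and HDAC2 complexes, Trerf1, related to a MiDAC subunit, rose and 32 did not pass. The median was 0.03, and for 31 the interval stayed within 2-fold. Rbbp4, a histone-binding subunit shared by several complexes, was at 204.5 to 225.5 CPM in controls and 164.8 to 218 CPM in knockouts (-0.22, interval -0.45 to 0.02), Sin3a changed by 0.11 and Rcor1 by 0.18. None of the 16 other histone deacetylases was called (median -0.04). Hdac3, the enzyme of the NCoR complex, changed by -0.05 with an interval from -0.30 to 0.20, and the largest change was that of Hdac7, from 0.401 to 0.845 CPM in controls to 0.591 to 2.38 CPM in knockouts (1.24, adjusted p = 0.999, edgeR). No histone acetyltransferase was called among 13 (median -0.02).

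The lysosome and antigen presentation lists had no called gene and medians below 0. Of the 28 lysosome genes, 25 lay below 0, with a median of -0.13, and for 5 of the 28 (against 1.14% of all genes) every knockout was below every control. Hexa, a lysosomal enzyme gene, was at 957, 1195, 899 and 888 CPM in controls and 846, 845, 812 and 799.9 CPM in knockouts (-0.28, unadjusted p = 0.0292), and Ctsb, a cathepsin, at 2772 to 3293 and 2537 to 2687 CPM. All 28 intervals lay within 2-fold. Among 21 antigen presentation genes the median was -0.22, 15 lay below 0 and 6 above, and 6 had an unadjusted p under 0.05. Their sums overlapped, at 2769 to 3875 CPM in controls and 2604 to 3960 CPM in knockouts, with the highest in knockout 4. The class I gene H2-D1 was at 221, 442, 285 and 297 CPM in controls and at 183, 209.8, 222 and 219 CPM in knockouts, with knockout 6 just above control 10 (-0.61 ± 0.17, unadjusted p = 0.00374, adjusted p = 0.673, edgeR). Its log2 change had been -0.57 at 2 weeks, where it was called. H2-K1 changed by -0.41 (unadjusted p = 0.0149), while B2m, the light chain that pairs with both, had a log2 change of 0.001 with a wide interval (-0.56 to 0.56). The class I genes are close copies of each other, so the assignment of reads among them is uncertain.

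The remaining lists had no called member at 6 weeks. Among these remaining lists with at least 8 tested genes, the largest negative median was that of the immediate early genes (-0.27, 20 tested). Next came the cytokines and their signalling (-0.21, 18 tested), the chemokines (-0.20, 12 tested) and complement (-0.19, 14 tested). The summed cytokine list was at 2722 to 2936 CPM in controls and 2523 to 2673 CPM in knockouts, with no overlap. C3ar1, the receptor for the complement fragment C3a, was at 515 to 591 CPM in controls and 350 to 498 CPM in knockouts, with no overlap (-0.41, unadjusted p = 0.00358), and did not pass after adjustment. Medians within 0.1 of 0 were found for p53 targets (22 tested), cell death (28), macrophage transcription factors (28), TGF-beta (15), Fc receptors (8), scavenger and pattern receptors (24), integrins (15), sterol synthesis (20), lipid handling (12), glycolysis (18) and iron handling (13). All 6 tested inhibitors of cyclin-dependent kinases lay above 0, with a median of 0.20. Few markers of cells outside the myeloid lineage were abundant enough to test, with medians of 0.12 for lymphocytes (2 tested), -0.14 for neurons (4), -0.17 for astrocytes (5), -0.13 for oligodendrocytes (6), 0.20 for vessels (6) and 0.38 for the erythroid list (1). The summed erythroid markers, most of them too low to test, were 0.210 to 0.992 CPM in controls and 1.25 to 4.73 CPM in knockouts, with no overlap. In the controls and in knockout 4 the whole sum came from Alas2, the tested member. Alas2 itself overlapped between the groups (0.266 to 1.25 CPM in knockouts, unadjusted p = 0.527, edgeR) and shares exon bases with Apex2. The choroid plexus list (2 tested) had a median of -1.95, with sums of 16.5 to 89.9 CPM in controls and 2.09 to 22.4 CPM in knockouts, which overlapped. The border macrophage median was 0.14 (13 tested).

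Most markers of neutrophils and monocytes were highest in a single knockout library. The summed neutrophil markers were 852 to 1230 CPM in controls and 660 to 8898 CPM in knockouts, and the summed monocyte markers 99.5 to 118 and 74.1 to 658 CPM. Knockout 6 was the highest in both. S100a8, an alarmin of neutrophil granules, was at 152, 241, 225 and 142 CPM in controls and at 135, 323, 1598 and 169 CPM in knockouts, and Ly6c2, a surface marker of inflammatory monocytes, reached 31.4 CPM in knockout 6 against 2.13 to 3.55 CPM in the other libraries. Fn1, which encodes fibronectin and is on the monocyte list, differed from that pattern. It was at 0.286, 0, 0 and 0.184 CPM in controls and at 1.25, 1.31, 9.73 and 0.637 CPM in knockouts, so that every knockout was above every control and knockout 6 was again the highest (unadjusted p = 0.00167, adjusted p = 0.482, edgeR). No member of either list was called. Without knockout 6 the medians were -0.34 for the neutrophil list and -0.10 for the monocyte list, in place of 1.43 and 1.26. The border macrophage list had sums of 540.1 to 707 CPM in controls and 433 to 809 CPM in knockouts. Without knockout 6, edgeR called 4 genes that rose and 2 that fell, and Esr1, Hdac2, Serpinf1, Cx3cr1 and Stag3 were among them.

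**Figure D4:**
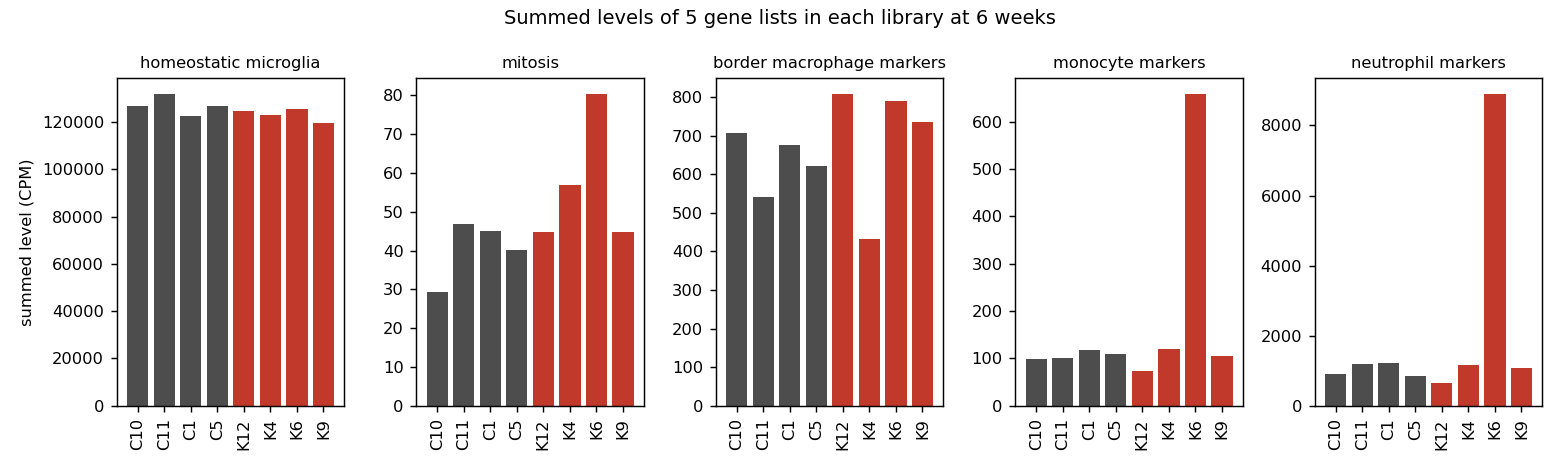
Summed levels (CPM, vertical axes starting at 0) of 5 gene lists in each of the 8 libraries at 6 weeks, with controls in grey (C and the animal number) and knockouts in red (K). The homeostatic sum stays between 119700 and 131900 CPM, while the neutrophil and monocyte sums of knockout 6 reach 8898 and 658 CPM.

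The course over age of the called genes sets the 6-week values in context. In controls Hdac2 was at 153.4 CPM on embryonic day 16, 138.4 at birth, 76.1 at 2 weeks and 70.6 at 6 weeks, and in inducible knockouts the means at birth, 2 weeks and 6 weeks were 60.7, 29.8 and 29.6 CPM. On embryonic day 16, 3 days after tamoxifen, 1 knockout library had 316 CPM of Hdac2 and the other 2 had 68.6 and 71.4 CPM. Trps1, Stox2, Trerf1 and Sorbs3 had higher control means before or at birth than at 6 weeks. On embryonic day 16, at birth and at 6 weeks, control Trps1 was at 74.1, 47.0 and 3.46 CPM, Stox2 at 29.2, 24.3 and 1.29 CPM, Trerf1 at 10.5, 7.52 and 1.53 CPM and Sorbs3 at 6.33, 21.6 and 0.770 CPM. Their knockout means at 6 weeks (14.6, 5.604, 5.79 and 3.81 CPM) were below the control means of both early ages. The control mean of Cx3cr1 moved the opposite way with age, from 2963 CPM on embryonic day 16 to 7620 CPM at 6 weeks. These are means of groups of 3 or 4 libraries, given without a test between ages.

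**Figure D5:**
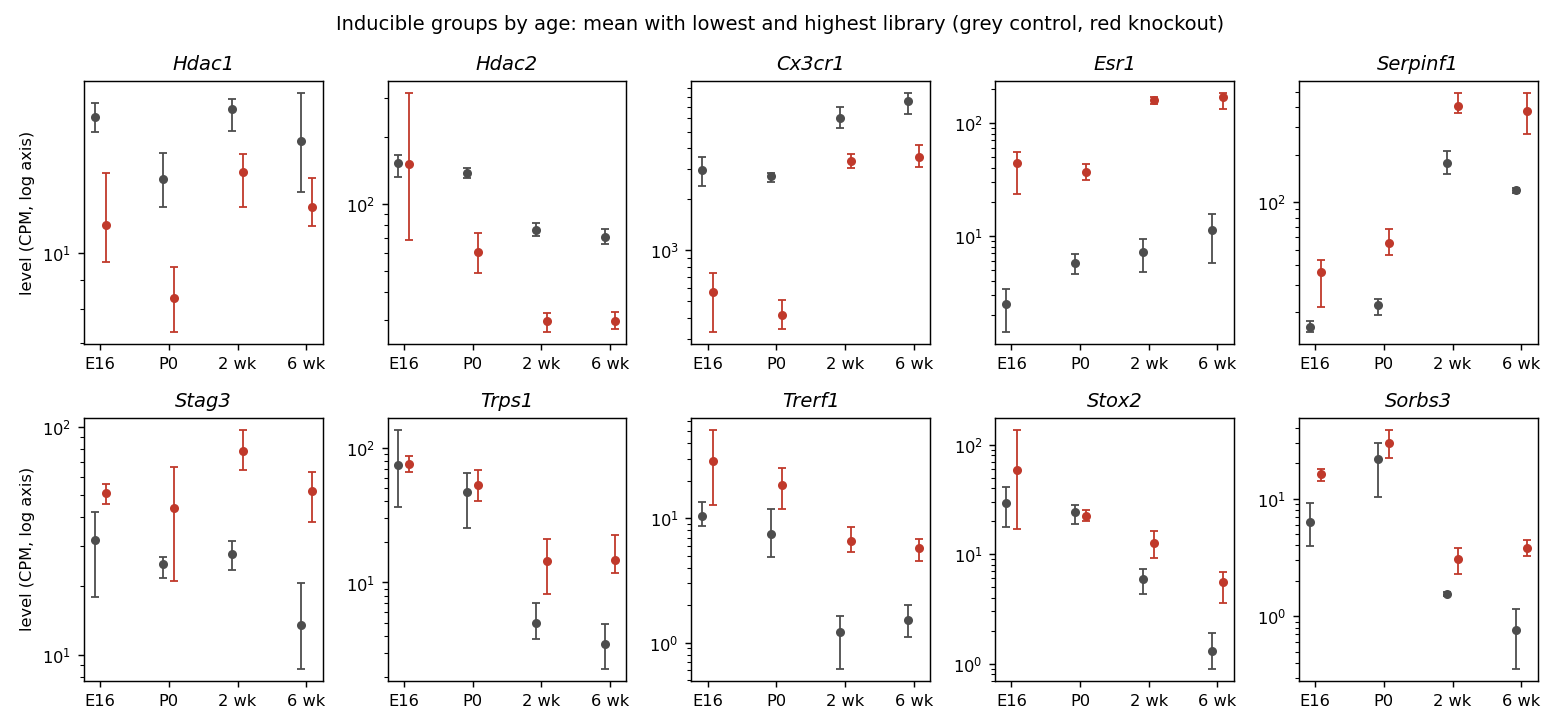
Levels (CPM, logarithmic vertical axes) of Hdac1, Hdac2 and the 8 other called genes in the inducible model from embryonic day 16 (E16) and birth (P0) to 2 and 6 weeks, for controls (grey) and knockouts (red); points are group means and bars run from the lowest to the highest of the 3 or 4 libraries. Hdac2 knockout means settle at 29.8 and 29.6 CPM at 2 and 6 weeks, and Esr1 is higher in knockouts at each age.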

How the data were processed

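Of the 50 sorted-microglia RNA-seq libraries, 8 (inducible model, 6 weeks) were compared, and 15 (inducible at 2 weeks, constitutive at 6 weeks) served as contrast. Groups came from the labels and column names. The authors' deposited table holds whole-number counts for 48526 genes, of which 48058 matched a symbol of GENCODE vM21 (the rest held 0.058% of counts). Per the submitters' processing notes the tools were CASAVA 1.8.2, STAR 2.5.2b on GRCm38, featureCounts 1.5.1 and limma 3.28.21, with no annotation release named. Per the labels, cDNA was amplified with a SMARTer kit and tagmented with Nextera XT. Such libraries usually carry no strand information, and the strand setting of the counting is not stated. The deposited normalized tables were not used.

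Comparisons used R 4.3.3 and edgeR 4.0.16 on each comparison's own groups: filterByExpr, TMM, robust quasi-likelihood fit, Benjamini-Hochberg adjustment over all genes tested, threshold 0.05. A gene rose or fell only if it passed. Differences between ages or models are interaction contrasts. CPM is the count scaled by the library total. Folds are the fitted log2 changes put back on the linear scale, so they differ slightly from ratios of mean CPM. SE is the absolute log2 change divided by the root of the F statistic. Alternatives used DESeq2 1.42.0, limma 3.58.1, other filters and scalings, sex as a covariate and each library left out. The scripts were tested on simulated data. Replicate pairs differed by more than counting error (chi-square per gene 13.0 to 59.8), so none was counted as a duplicate.

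Named were Hdac1, Hdac2, Cx3cr1 and Esr1, up to 12 largest rises and falls among called genes of at least 5 CPM without overlap, up to 4 called members per list (or 2 with the smallest p), and up to 8 genes per interaction. Sorbs3 (under 5 CPM) and the remaining list members were chosen after their values were seen. The comparison, lists and tests were chosen with earlier results of these data known, so the lists give no independent support. The 36 lists are those of homeostatic and disease-associated microglia, mitosis, DNA replication, kinase inhibitors, p53, cell death, deacetylases, their complexes, acetyltransferases, macrophage factors, TGF-beta, interferon, cytokines, chemokines, antigen presentation, complement, Fc, scavenger and pattern receptors, integrins, lysosome, sterols, lipid handling, glycolysis, immediate early and iron genes, and markers of border macrophages, monocytes, neutrophils, lymphocytes, neurons, astrocytes, oligodendrocytes, vessels, erythroid cells and choroid plexus.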

Additional observations from a re-analysis of the deposited data

Results flagged for a closer look

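In 15 of 166 groups of 4 libraries tested, the highest or lowest library stood far from the other 3. For independent, normally distributed values chance gives about 1 in 20. The genes share the same libraries and are not independent, so that rate is only a rough guide. Knockout 6 was high for Fn1 (9.73 CPM), Ly6c2 (31.4 CPM), S100a8 (1598 CPM), S100a9 (1962 CPM) and Ccnb2 (3.03 CPM), which are monocyte, neutrophil and mitosis genes. Knockout 4 was low for Esr1 (133 CPM), Itgb2 (422 CPM) and Kat5 (19.7 CPM) and high for Maf (672 CPM). Knockout 9 was high for Trps1 (22.7 CPM) and Insig1 (7.73 CPM). Among controls, control 1 was high for Ccl3 (128 CPM) and Cflar (191 CPM), control 10 for Lpl (92.0 CPM) and control 11 for Cdkn2d (9.46 CPM).

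The knockout effect at 6 weeks differed between the models by the interaction test of edgeR for 767 genes, of which 8 were named for the smallest adjusted p. The inducible minus the constitutive log2 change was 4.53 for Myo6, 4.66 for Nbea, 6.66 for Hspb3, 4.17 for Csmd3, 4.48 for Casc4, 5.08 for Myo18b, -5.65 for Gpr65 and -5.02 for Arhgap15, with adjusted p from 8.57e-10 to 7.85e-07. All 8 were called under each of 21 alternative settings. The models also differ in the timing of deletion and in tamoxifen treatment, which cannot be told apart here.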

How the results depend on the processing

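Against 7 genes that rose and 2 that fell (9 in all), DESeq2 called 30 and 14 (44), no low-count filter 18 and 7 (25), limma voom 4 that rose, all 8 inducible groups in 1 fit 14 that rose (16), and females alone, chosen after seeing the data, 0 and 0 (0). Leaving out 1 library gave 3 to 14 that rose and 2 to 4 that fell (5 to 18 in all, with 5 without control 1 and 18 without knockout 4). All 9 genes were also called by DESeq2. For the difference between ages, 0 genes became 3 higher and 3 lower (6) with DESeq2 and 1 lower (1) without a filter, and leaving out 1 library gave 0 to 9 higher and 0 to 4 lower (0 to 13). For the difference between models, leaving out 1 library gave 287 to 412 higher and 244 to 483 lower (531 to 834). Of 1683 single-gene values under alternatives, 1630 kept direction and side of the threshold, 49 lost the call, 4 gained it and 0 reversed. The cause was not tested. No paired analysis was possible because the control and knockout groups at 6 weeks share no animal number and numbers name different animals. Low genes limit the depth: in controls Sorbs3 rests on 5 to 24 counts a library.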

Other observations

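Fcrls, an Fc-receptor-like gene of the homeostatic list, fell into high and low libraries that cut across genotype. It was at 1192, 1286 and 1020 CPM in control 1, knockout 4 and knockout 9 and at 2481 to 4254 CPM in the other 5 libraries. Clec7a, a receptor for fungal sugars in the disease-associated list, ranged from 4.42 CPM in knockout 12 to 53.8 CPM in control 10, with both genotypes spread over the range. Neither gene passed the test, and their intervals were wide (log2 -1.16 to 1.53 for Fcrls and -2.12 to 1.62 for Clec7a).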
